A study of Mus musculus with 6 samples.

Results

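Expression of 40 genes of the chromosome cycle was followed in myeloid cells of the mouse pancreas: 20 genes that act in DNA replication (the replication genes) and 20 that act in mitosis (the mitosis genes). They were chosen by name, as well-known members of each process, and not by their level, though with earlier results of these data known. All 40 were found, by their Ensembl identifiers in the GENCODE vM21 annotation, among the 21780 genes of the table, and all 40 were among the 14429 genes that passed the filter on low counts and were tested. Poly-A RNA was sequenced from viable cells, sorted by flow cytometry for surface CD45 and CD11b out of pancreata of wild-type C57BL/6 mice aged 6 to 8 weeks. The treated animals had received 1 mg of WGP, hollow whole glucan particles made from the yeast cell wall, into the peritoneal cavity 7 days earlier, and the controls had received PBS. Each group had 3 libraries, and the cells carried no deletion or transgene. Both sexes were used in the study, and the sex behind each library is not given. The study describes each sample as coming from a separate animal, all within a single experiment, so the p-values below measure the spread between the animals of that experiment.

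Before a cell copies its DNA, the ring-shaped MCM helicase (Mcm2 to Mcm7) is loaded onto replication origins by Cdc6 and Cdt1. Cdc45 and the GINS complex switch it on, DNA polymerase alpha with its primase lays down primers, and the sliding clamp PCNA holds the later polymerases on the template. In mitosis, cyclin B with CDK1 drives entry, Aurora and Polo-like kinases and motor kinesins build the spindle, BUB proteins hold the cell until every chromosome is attached, and the anaphase-promoting complex then ends the phase before the cell is cut apart. Most monocytes and neutrophils in tissue no longer divide, whereas their precursors and some tissue macrophages do. In bulk RNA, fewer dividing cells and less RNA of these genes per cell cannot be told apart.

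Both groups of genes are classically switched through short promoter elements, E2F sites in replication genes and the CHR element, often beside CCAAT boxes, in mitosis genes. Promoters from RefSeq (build GRCm38.p6, 250 bases before the start to 50 after it) were read for 34 of the 40 members, all but Mcm4, Gins2, Rfc2, Ccna2, Aurkb and Tpx2, which gave 36 promoters. The words searched on both strands were TTTCCCGC, TTTCGCGC, TTTGCCGC and TTTGGCGC for E2F, TTTGAA for the CHR, and CCAAT. E2F words may overlap one another and a CCAAT word. Shown here, in the direction of the gene and with every searched word in capitals, are the promoters of the members with the smallest p in each group that hold its word: Mcm7 (minus strand, chr5:138171834-138172133) and Mcm6 (minus strand, chr1:128359656-128359955) for E2F, and Kif23 (minus strand, chr9:61946750-61947049) and Anln (minus strand, chr9:22389157-22389456) for the CHR.
Mcm7: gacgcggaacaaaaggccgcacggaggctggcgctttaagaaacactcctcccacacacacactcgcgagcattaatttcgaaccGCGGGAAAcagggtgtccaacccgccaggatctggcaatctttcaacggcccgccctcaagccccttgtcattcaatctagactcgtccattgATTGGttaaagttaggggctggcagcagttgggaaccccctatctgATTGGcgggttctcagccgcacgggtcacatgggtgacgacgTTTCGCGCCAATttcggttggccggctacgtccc
Mcm6: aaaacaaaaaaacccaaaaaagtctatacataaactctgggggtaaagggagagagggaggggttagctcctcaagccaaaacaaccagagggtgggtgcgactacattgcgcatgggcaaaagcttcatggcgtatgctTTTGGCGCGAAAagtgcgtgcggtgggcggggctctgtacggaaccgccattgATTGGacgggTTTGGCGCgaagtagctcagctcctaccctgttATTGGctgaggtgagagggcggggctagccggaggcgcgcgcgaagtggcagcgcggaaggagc
Kif23: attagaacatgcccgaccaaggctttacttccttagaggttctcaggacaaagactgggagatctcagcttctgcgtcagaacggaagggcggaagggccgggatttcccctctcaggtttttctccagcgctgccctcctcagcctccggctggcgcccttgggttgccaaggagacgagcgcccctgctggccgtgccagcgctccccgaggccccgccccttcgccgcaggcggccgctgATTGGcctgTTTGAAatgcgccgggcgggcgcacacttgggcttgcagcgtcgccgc
Anln: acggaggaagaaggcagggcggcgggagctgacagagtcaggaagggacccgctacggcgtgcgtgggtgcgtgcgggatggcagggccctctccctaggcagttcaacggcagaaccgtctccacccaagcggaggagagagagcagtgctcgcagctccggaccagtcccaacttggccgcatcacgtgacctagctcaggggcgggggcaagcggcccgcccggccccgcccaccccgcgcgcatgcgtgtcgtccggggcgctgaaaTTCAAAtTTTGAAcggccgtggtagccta

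With the base at the start as position 0, Mcm7 held E2F words at -165 to -158 and at 16 to 23, and Mcm6 held them at -110 to -103, at -106 to -99, which overlaps the former on the other strand, and at -47 to -40. Another promoter of Mcm7, not shown (minus strand, chr5:138171217-138171516), held 0 E2F words and 1 CCAAT word. In Kif23 a CCAAT word on the opposite strand at -7 to -3 stood just before the CHR word at 2 to 7. Anln held CHR words at 21 to 26 and at 28 to 33, on opposite strands, and no CCAAT word. A word here is a match of letters, not a bound site.

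An E2F word was present in 7 of the 19 promoters of replication genes (36.8%) and in 1 of the 17 of mitosis genes (5.88%), that of Cdk1. The CHR word was present in 13 promoters of mitosis genes (76.5%) and in 4 of replication genes (21.1%). CHR and CCAAT words stood together in 12 promoters of mitosis genes (70.6%) and in 3 of replication genes (15.8%). Across all 32851 promoters of the table, 2.26% held an E2F word, 17.9% a CHR word and 6.95% both CHR and CCAAT. Among the 14311 promoters of tested genes the shares were 3.62%, 12.4% and 5.02%. The members' promoters thus differed by group in the letters they carry, which is independent of the counts. Within the replication genes the holders of an E2F word were Mcm3, Mcm5, Mcm6, Mcm7 (in the promoter shown only), Cdt1, Cdc6 and Pola1.

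Totals per library ran from 35334645 to 43341834 counts, with 12147 to 12860 genes detected. Ptprc (CD45) and Itgam (CD11b), the genes of the sorted surface proteins, were present in every library. Ptprc lay between 949 and 1043 CPM (counts scaled to a common library total) in PBS and between 1536 and 1747 in WGP, and Itgam between 189 and 254 in PBS and between 379 and 418 in WGP. Both rose (log2 fold changes 0.71 and 0.79, adjusted p = 0.00725 and 0.00618 by edgeR's quasi-likelihood test). Here CPM are scaled by TMM factors, which correct for differences in RNA composition, a log2 fold change is WGP over PBS, and a gene was called when its Benjamini-Hochberg adjusted p over all 14429 genes was at most 0.05. PBS replicate 1 stood apart from the other controls. It held 0 counts of Y-linked genes, as against 8972 and 10063 in PBS replicates 2 and 3, while the WGP libraries held 0, 0 and 1. It was thus the only control that matched the WGP libraries in this respect. Y-linked counts, and with them probably sex, were partly confounded with treatment in every comparison below. The most frequent low count, sought with the lowest counts left out, was 41, 28 and 28 in PBS and 19, 32 and 28 in WGP. Such a search returns a value for any library, and whether counts piled up there was not tested. Per library, 143 to 170 genes had 1 to 5 counts. With each library's counts divided by its most frequent low count, 8 members were called lower (Kif11 beside the 7 named below). Counting limits given below cover counting error only.

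Among the replication genes, 5 of 20 fell and 0 rose in WGP-treated animals: the clamp gene Pcna, the histone chaperone gene Nasp, the helicase genes Mcm6 and Mcm7, and Rrm1, which encodes the large subunit of ribonucleotide reductase. Among the mitosis genes, 2 of 20 fell and 0 rose: Kif23 and Anln, both of which encode proteins of cytokinesis. Of all tested genes, 14.4% passed, 6.81% lower and 7.54% higher, so 7 of the 40 members lower (17.5%) stands beside 6.81%. At an unadjusted p under 0.05, 12 members were lower and 0 higher by the same test, beside 13.1% and 12.9% of all genes, and with DESeq2 or limma-voom 0 members were called higher too. With a log2 fold change of at least 1 in size also required, 2 replication genes (Mcm7 and Nasp) and both mitosis genes remained, where 4.96% of all genes were lower by that rule. Estimates lay below 0 for 18 of 20 members in each group, as against 53.2% of all genes, and the same number lay below 0 under each of the 3 scalings tried. With limma-voom 18 replication and 15 mitosis genes lay below 0. The median log2 fold change was -0.67 in the replication genes, -0.53 in the mitosis genes and -0.053 over all genes. With limma-voom the median of the mitosis genes was -0.30, and that of the replication genes -0.57.

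**Figure D1:**
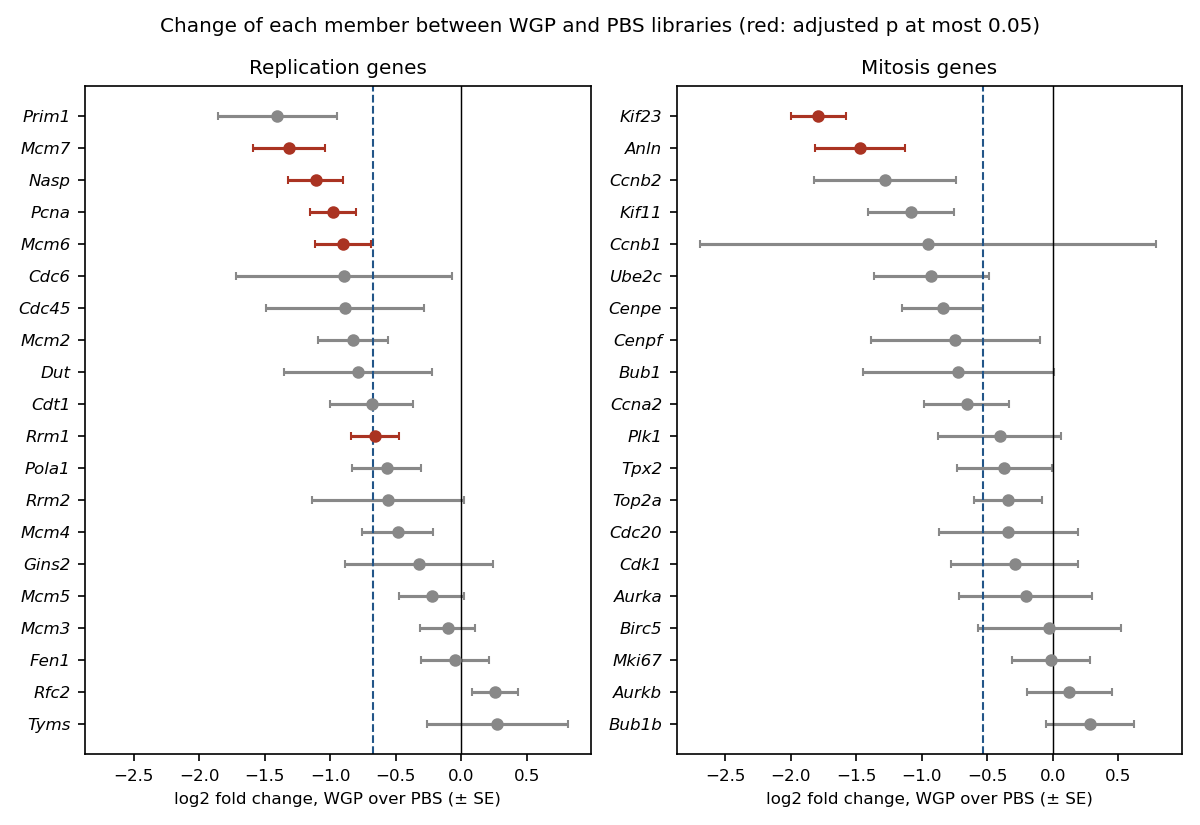
Log2 fold change of each member, WGP over PBS (horizontal axis; points are estimates, bars the standard error), for replication genes (left) and mitosis genes (right); red marks adjusted p at most 0.05 and the dashed line the median of the group. Red points are Mcm7, Nasp, Pcna, Mcm6 and Rrm1 on the left and Kif23 and Anln on the right, and the bar of Ccnb1 is the widest.

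These medians rested largely on PBS replicate 1. It was the highest of the 6 libraries in 16 of 20 replication genes and in 17 of 20 mitosis genes, 33 of 40 together (82.5%), where it was the highest library in 22.3% of all tested genes. Without it, the median was -0.18 in the replication genes and 0.021 in the mitosis genes, and 24 of 40 estimates lay below 0 (15 replication and 9 mitosis genes). The calls moved less than the medians. Without that library 6 members were still called lower, namely Pcna, Nasp, Mcm6, Mcm7, Kif23 and Anln, with 7.41% of all genes lower, and Rrm1 was lost (adjusted p = 0.0659, log2 fold change -0.61). A covariate for whether a library held Y-linked counts left, in effect, PBS replicate 1 alone against the WGP libraries. It gave 12 members called lower with 5.69% of all genes lower, and medians of -1.18 and -1.03. When PBS replicate 1 is left out, Y-linked counts and treatment cannot be told apart.

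**Figure D2:**
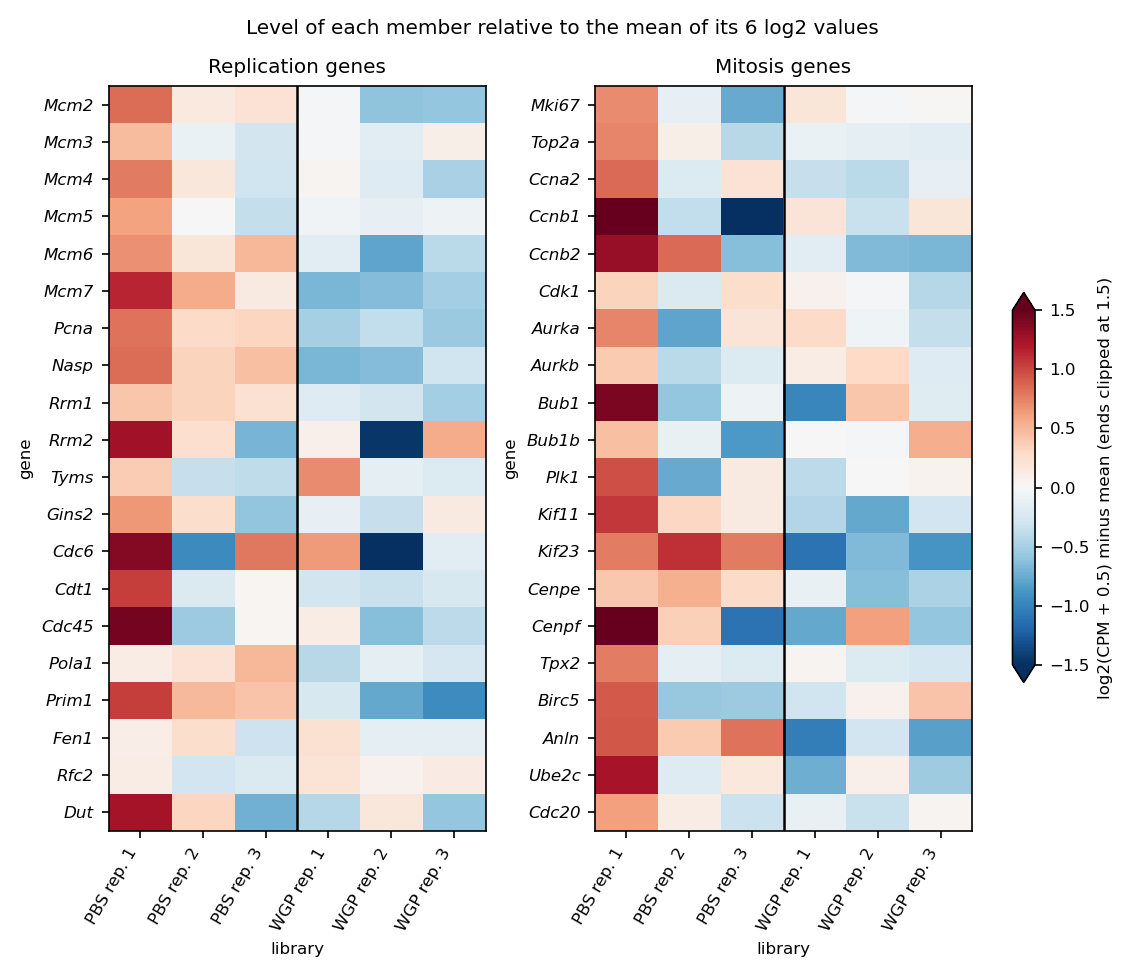
Level of each member in each library on the log2 scale relative to the mean of its 6 log2 values (color; red above, blue below the mean; the black line divides PBS from WGP). The column of PBS replicate 1 is above the mean in nearly every row. The called members Pcna, Nasp, Rrm1, Mcm6, Mcm7, Kif23 and Anln are above it in all 3 PBS libraries and below it in all 3 WGP libraries, as are some members that were not called, such as Prim1 and Cenpe.

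Among the helicase subunits, which work as one ring, Mcm7 and Mcm6 fell and the others did not pass the test. Mcm7 (ENSMUSG00000029730, chr5:138164583-138172422) was at 53.5, 35.4 and 26.3 CPM in PBS and at 14.7, 15.1 and 16.6 CPM in WGP. Every WGP library lay below every PBS library, and the means differed 2.48-fold (log2 fold change -1.31 ± 0.28 SE, adjusted p = 0.00916, edgeR). Mcm6 (ENSMUSG00000026355, chr1:128331590-128359664) was at 79.8, 56.4 and 70.1 CPM in PBS and at 44.3, 28.4 and 37.5 CPM in WGP, again without overlap (log2 fold change -0.91 ± 0.21 SE, adjusted p = 0.0171, edgeR). Without WGP replicate 3 the adjusted p of Mcm6 was 0.0594.

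The levels of Mcm3 overlapped between the groups. Mcm3 was at 84.4, 56.7 and 50.1 CPM in PBS and at 59.4, 54.1 and 64.4 CPM in WGP (log2 fold change -0.11 ± 0.21 SE, adjusted p = 0.812, edgeR). Estimates for the remaining subunits were -0.82 for Mcm2 (adjusted p = 0.0694), -0.48 for Mcm4 (0.302) and -0.23 for Mcm5 (0.618), and of these the groups of Mcm2 alone did not overlap. The CPM of Mcm7 over that of Mcm3 was 0.634, 0.624 and 0.525 in PBS and 0.247, 0.279 and 0.259 in WGP, a pair chosen after its values were seen and given without a test. Mcm7 (in the promoter shown only), Mcm6, Mcm3 and Mcm5 held E2F words. Mcm7 overlaps Cops6 and Ap4m1 on the opposite strand and Mir25, Mir93 and Mir106b on its own. The strand setting of the counting is not given, so what these overlaps did to its counts is not known. Of the other called members, Rrm1 overlaps Gm45399 and Anln overlaps Gm48646, both on the same strand.

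PCNA, the clamp, had the highest level per length of all 40 members, at 51.1 CPM per kilobase of exon in PBS and 25.9 in WGP. Pcna (ENSMUSG00000027342, chr2:132249162-132253314) was at 153, 106 and 109 CPM in PBS and at 61.1, 66.8 and 58.7 CPM in WGP. The 3 WGP libraries were close together and all below the lowest PBS library (1.97-fold between the means, log2 fold change -0.98 ± 0.18 SE, adjusted p = 0.00421, edgeR). Nasp (ENSMUSG00000028693, chr4:116601052-116627941), whose product carries histones to newly made DNA, was at 66.0, 46.3 and 50.4 CPM in PBS and at 22.5, 23.2 and 29.6 CPM in WGP. It fell without overlap (log2 fold change -1.11 ± 0.21 SE, adjusted p = 0.00548, edgeR).

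**Figure D3:**
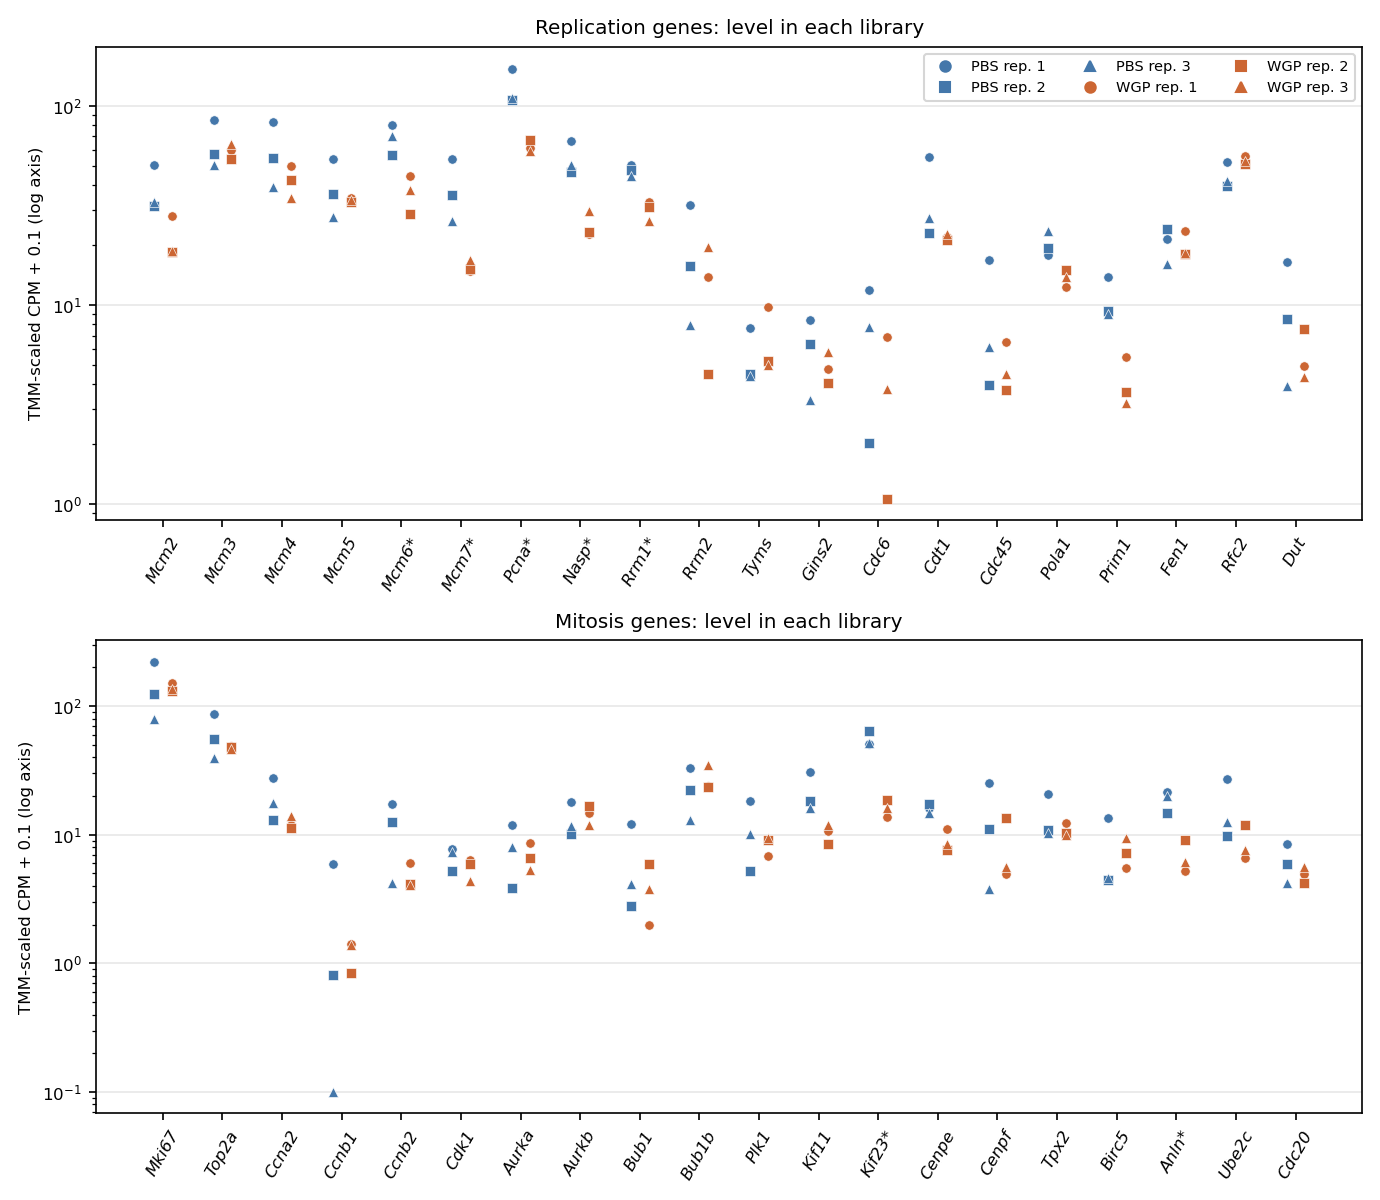
TMM-scaled CPM of each member in each library (logarithmic vertical axis, with a small constant added so that 0 can be drawn; blue PBS, orange WGP; circle, square and triangle for replicates 1, 2 and 3; an asterisk marks adjusted p at most 0.05). The orange points of Kif23, Pcna and Mcm7 sit below all blue ones, and those of Mki67 lie between the blue ones.

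Of the 4 genes of nucleotide supply, 1 passed the test. Rrm1 (ENSMUSG00000030978, chr7:102441695-102469771) was at 50.4, 47.6 and 44.2 CPM in PBS and at 32.8, 30.9 and 26.3 CPM in WGP, with little spread within either group. It fell (log2 fold change -0.66 ± 0.18 SE, adjusted p = 0.0364, edgeR), but was called in only 7 of the 15 other settings. Rrm2, the gene of the partner subunit whose level follows S phase, was at 31.8, 15.5 and 7.82 CPM in PBS and at 13.7, 4.41 and 19.3 CPM in WGP. Its groups overlapped widely (log2 fold change -0.56 ± 0.58 SE, adjusted p = 0.591, edgeR). Tyms, which makes thymidylate, was the lowest replication gene per length in PBS (0.889 CPM per kilobase), at 7.57, 4.39 and 4.28 CPM in PBS and 9.63, 5.11 and 4.91 CPM in WGP (log2 fold change 0.28 ± 0.53 SE). Dut, which keeps uracil out of DNA, had an estimate of -0.79 (adjusted p = 0.411).

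Genes that load and start the helicase, and those of primers and Okazaki fragments, gave no call by edgeR's test. Cdc6 was the next lowest per length (1.36 CPM per kilobase in PBS), at 11.7, 1.93 and 7.67 CPM in PBS and 6.81, 0.965 and 3.69 CPM in WGP. Its libraries were mixed between the groups (log2 fold change -0.90 ± 0.82 SE). Cdt1 was at 55.0, 22.8 and 27.2 CPM in PBS and at 21.9, 21.0 and 22.5 CPM in WGP, and it overlaps Gm20388 on the same strand. The groups did not overlap, but PBS replicate 1 carried most of the estimate: -0.68 with it (adjusted p = 0.205) and -0.20 without it. Estimates were -0.89 for Cdc45 and -0.32 for Gins2, with adjusted p of 0.392 and 0.780.

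The primase gene Prim1 had the most negative estimate of the replication genes and missed the threshold. It was at 13.8, 9.19 and 8.85 CPM in PBS and at 5.35, 3.57 and 3.10 CPM in WGP (log2 fold change -1.40 ± 0.46 SE, adjusted p = 0.0693, edgeR), whereas DESeq2's Wald test called it lower (adjusted p = 0.0242). Pola1, the polymerase that extends its primers, was one of the 4 replication genes in which PBS replicate 1 was not the highest library, with 17.7, 19.1 and 23.4 CPM in PBS and 12.1, 14.8 and 13.6 CPM in WGP (log2 fold change -0.57 ± 0.26 SE, adjusted p = 0.199, edgeR). Fen1, the flap nuclease, and Rfc2, a clamp loader subunit, had estimates of -0.046 and 0.26, and both overlap genes on the opposite strand. In all, 9 of the 20 replication genes had groups that did not overlap, with WGP lower, as did 4 of the 20 mitosis genes (13 of 40, 32.5%). Over all tested genes the share was 16.1% lower, and 16.0% higher.

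The 2 mitosis genes that fell act late, in cytokinesis. Kif23 (ENSMUSG00000032254, chr9:61915905-61946774), a kinesin of the central spindle where the cleavage furrow forms, was at 51.1, 64.0 and 51.3 CPM in PBS and at 13.5, 18.7 and 15.9 CPM in WGP. The highest WGP library was far below the lowest PBS library and the means differed 3.45-fold (log2 fold change -1.79 ± 0.21 SE, adjusted p = 0.000307, edgeR). Kif23 was not highest in PBS replicate 1, and without that library the estimate was -1.85 (adjusted p = 0.000415). Anln (ENSMUSG00000036777, chr9:22332012-22389188), the anillin scaffold of the contractile ring, was at 21.6, 14.7 and 19.8 CPM in PBS and at 5.13, 8.995 and 6.06 CPM in WGP. It fell 2.78-fold between the means (log2 fold change -1.47 ± 0.34 SE, adjusted p = 0.0159, edgeR), and was called in 12 of 15 other settings, where Kif23, Pcna, Nasp and Mcm7 were called in all 15.

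The motor genes Kif11 and Cenpe had the next smallest p of the mitosis genes. Kif11, which pushes spindle poles apart, was at 30.7, 18.2 and 15.9 CPM in PBS and at 10.5, 8.32 and 11.8 CPM in WGP. Its groups did not overlap, yet it missed the threshold (log2 fold change -1.08 ± 0.33 SE, adjusted p = 0.0541, edgeR), while DESeq2 called it lower (adjusted p = 0.0314). Cenpe, a kinetochore motor, was at 15.9, 17.4 and 14.7 CPM in PBS and at 10.9, 7.48 and 8.41 CPM in WGP (log2 fold change -0.84 ± 0.31 SE, adjusted p = 0.105, edgeR). Cenpf, another kinetochore gene and the second lowest mitosis gene per length (0.859 CPM per kilobase in PBS), was at 25.0, 11.1 and 3.69 CPM in PBS and 4.83, 13.4 and 5.55 CPM in WGP. Here the PBS libraries spread wider than the groups differed (log2 fold change -0.74 ± 0.65 SE, adjusted p = 0.4999, edgeR).

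Mki67, the gene of the proliferation antigen Ki-67, had groups that overlapped. It was at 221, 124 and 79.7 CPM in PBS and at 152, 132 and 136 CPM in WGP (log2 fold change -0.014 ± 0.30 SE, adjusted p = 0.986, edgeR). PBS libraries lay on both sides of the WGP libraries, and without PBS replicate 1 the estimate was 0.46. Mki67 was the highest mitosis gene per length (14.1 CPM per kilobase in PBS and 13.9 in WGP). Top2a, the topoisomerase that untangles chromosomes, was at 87.1, 55.5 and 39.2 CPM in PBS and at 48.7, 47.8 and 46.8 CPM in WGP (log2 fold change -0.34 ± 0.26 SE, adjusted p = 0.435, edgeR). As with Mki67, the 3 WGP values lay within the range of PBS. Both promoters held CHR and CCAAT words, as did that of Kif23.

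Cdk1, the kinase of mitotic entry, and its cyclins gave no call. Cdk1 was at 7.67, 5.08 and 7.28 CPM in PBS and at 6.24, 5.84 and 4.30 CPM in WGP (log2 fold change -0.29 ± 0.48 SE, adjusted p = 0.767, edgeR). Ccnb2, next to Mki67 in level per length in PBS (7.35 CPM per kilobase), was at 17.2, 12.4 and 4.11 CPM in PBS and at 5.89, 4.05 and 3.96 CPM in WGP. PBS replicate 3 was among the WGP values (log2 fold change -1.28 ± 0.54 SE, adjusted p = 0.165, edgeR). Ccnb1 was the lowest member per length, with 222, 28 and 0 counts in PBS and 48, 31 and 53 in WGP, and a count of 0 allows up to 3. That limit takes a table count as a read. The most frequent low count of PBS replicates 2 and 3 was 28. Whether the deposited counts were multiplied is not stated in the sources used here. If they were, 28 counts may stand for few reads and the limit would be wider. The libraries of PBS spread too widely for a comparison (log2 fold change -0.95 ± 1.74 SE). Ccna2, cyclin A, had an estimate of -0.66 (adjusted p = 0.241).

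The kinases, checkpoint genes and genes of mitotic exit gave no call and had estimates on both sides of 0. Among the kinases, estimates were -0.21 for Aurka, 0.13 for Aurkb and -0.41 for Plk1. The checkpoint kinase Bub1 was at -0.72 and its relative Bub1b at 0.28, the highest estimate of the 40 members. Birc5 (survivin) was at -0.028 and Tpx2, which activates Aurora A, at -0.37. Ube2c and Cdc20, of the anaphase-promoting complex pathway, were at -0.93 and -0.34. For these 9 genes the adjusted p lay between 0.215 and 0.985, and in 8 of them PBS replicate 1 was the highest library. Ccna2, Cdc20, Ube2c and Plk1 overlap genes on the opposite strand, as do Cdc45 and Gins2 of the replication genes.

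Summed over their 20 members, the replication genes reached 927, 624 and 599 CPM in PBS and 510, 445 and 472 CPM in WGP. The mitosis genes reached 673, 411 and 331 CPM in PBS and 356, 354 and 351 CPM in WGP. All WGP sums of the replication genes were below all PBS sums, while those of the mitosis genes overlapped with PBS replicate 3. The ratio of the sums, replication over mitosis, was 1.38, 1.52 and 1.81 in PBS and 1.43, 1.26 and 1.34 in WGP. Without Mki67 in the denominator it was 2.05, 2.18 and 2.38 in PBS and 2.51, 2.01 and 2.19 in WGP, with overlapping groups. Whether the replication and mitosis genes differed in their response was not tested. The counts of calls, 5 and 2, do not show that they did.

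**Figure D4:**
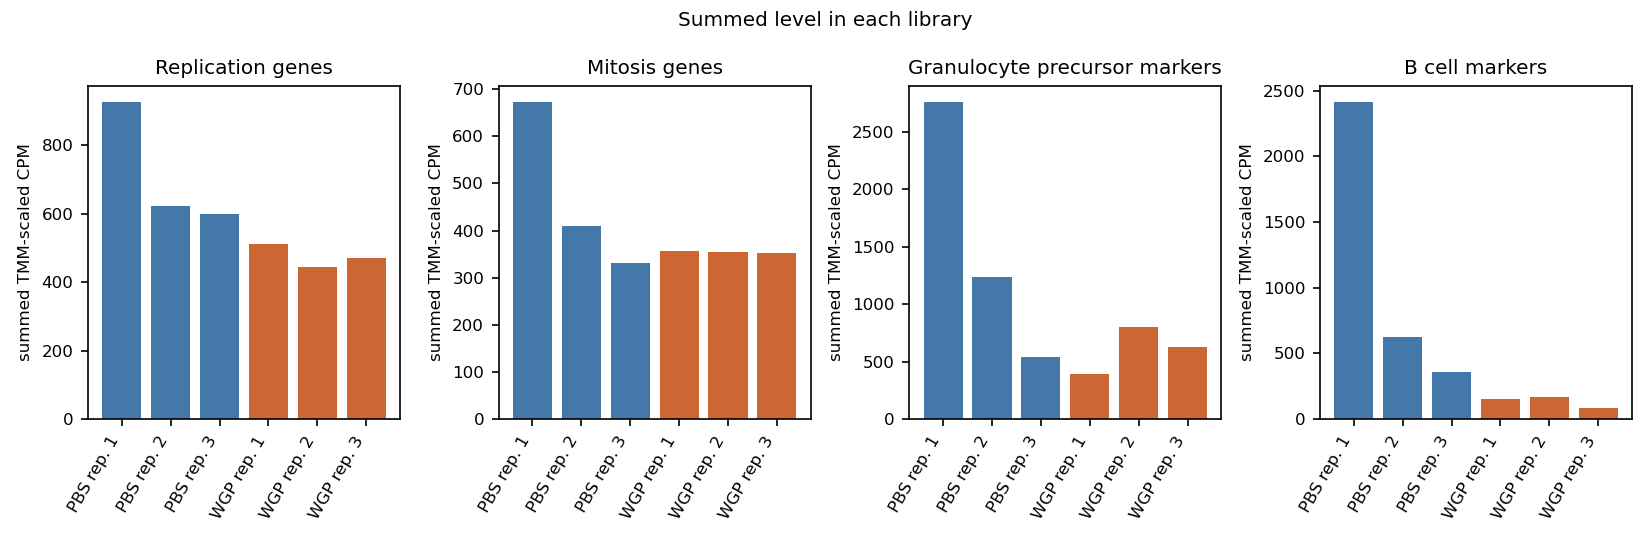
Summed TMM-scaled CPM in each library (bars; blue PBS, orange WGP) of the replication genes, the mitosis genes, the 8 markers of granulocyte precursors and the 5 markers of B cells, each panel on its own axis from 0. PBS replicate 1 is the highest bar in all 4 panels, at 927, 673, 2762 and 2414 CPM.

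Markers of other cells also differed between the libraries, and their part in these results was not tested. Of the 8 granulocyte precursor markers, all were highest in PBS replicate 1, their sums were 2762, 1240 and 538 CPM in PBS and 388 to 798 CPM in WGP, and 2 of them, Elane and Mpo, fell. The groups of Elane overlapped (60.2, 9.63 and 2.64 CPM in PBS and 1.71, 3.42 and 1.39 CPM in WGP), and the related proteases Prtn3 and Ctsg did not pass the test (adjusted p = 0.467 and 0.259, edgeR). Of the 5 haematopoietic progenitor markers 3 estimates lay below 0. Kit alone was called, and it rose without overlap (log2 fold change 1.72, adjusted p = 0.00316, edgeR). The sums of these markers overlapped, at 31.3 to 52.4 CPM in PBS and 46.9 to 80.0 CPM in WGP. The 7 neutrophil markers summed to between 1247 and 3730 CPM in PBS and between 1945 and 2038 CPM in WGP, and 5 of them were highest in PBS replicate 1. The other two, the receptor genes Csf3r and Cxcr2, rose (log2 fold changes 0.81 and 1.30, adjusted p = 0.00925 and 0.0032, edgeR), with every WGP library above every PBS library. All 5 B cell markers fell and all were highest in PBS replicate 1, with sums of 2414, 621 and 361 CPM in PBS and 86.8 to 169 CPM in WGP. Resident macrophage markers ran the other way in PBS: 8 of 8 fell, with sums of 4480, 8911 and 11299 CPM in PBS and 790 to 1109 CPM in WGP. Of the 8 markers of Ly6C-high monocytes 4 rose and F13a1 fell, with sums of 2995 to 6466 CPM in PBS and 6533 to 8195 CPM in WGP. All 7 markers of acinar cells, the enzyme-secreting cells of the pancreas, fell too, with sums of 1169 to 4476 CPM in PBS and 294 to 520 CPM in WGP. Sums of plasma cell markers (273, 93.6 and 86.0 CPM in PBS and 47.8 to 120 in WGP), NK cell markers (164, 99.5 and 43.8 in PBS and 73.0 to 87.7 in WGP) and endothelial markers (121, 50.3 and 30.5 in PBS and 38.3 to 73.9 in WGP) were also highest in PBS replicate 1. In these lists Mzb1 and Gzma fell and Sdc1, Klrk1 and Kdr rose. The 4 plasmacytoid dendritic cell markers summed to 356 to 404 CPM in PBS and 169 to 196 in WGP, and Siglech and Tcf4 fell. The 6 conventional dendritic cell markers summed to 148 to 194 CPM in PBS and 67.5 to 130 CPM in WGP, and Cd209a fell. T cell markers summed to 36.8 to 44.4 CPM in PBS and 16.5 to 51.3 CPM in WGP, and Cd8a rose. WGP replicate 2 stood apart in fibroblast markers, with 1030 CPM as against 21.9 to 101 in the other libraries, and 0 of these 5 markers passed edgeR's test, with 2 at an unadjusted p under 0.05. Without that library 5 members were called lower (Pcna, Nasp, Mcm7, Kif23 and Anln). No marker of the first 6 lists was at 0 in every library, and of the 5 mast cell and basophil markers Cpa3 and Mcpt4 were.

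Around the members, 145 other cell cycle genes in 11 lists were read in the same fit, and all 145 were tested. Of these 3 rose and 7 fell, beside 7.54% and 6.81% of all genes, and 108 estimates lay below 0. In the G1 machinery, of the 3 D cyclins, 1 fell and 1 rose. Ccnd1 fell, from 126, 181 and 156 CPM in PBS to 71.0, 81.7 and 79.0 CPM in WGP (log2 fold change -0.997 ± 0.165 SE, adjusted p = 0.00252, edgeR), and Ccnd3 rose (0.56 ± 0.15 SE, adjusted p = 0.0308, edgeR). Ccnd2 overlapped between the groups (-0.25 ± 0.43 SE, adjusted p = 0.770, edgeR). Of the 15 other settings, Ccnd1 was called in 15 and Ccnd3 in 8: the call of Ccnd3 was lost with library totals, with the Y-linked covariate and without PBS replicate 2, PBS replicate 3, WGP replicate 2 or WGP replicate 3. Cdk6, the kinase partner of D cyclins, fell (-0.78 ± 0.18 SE, adjusted p = 0.0170, edgeR), a call lost without PBS replicate 2, WGP replicate 1 or WGP replicate 3 and with the Y-linked covariate. Among 7 CDK inhibitors Cdkn1a (p21) rose, from 222, 257 and 252 CPM in PBS to 456, 396 and 349 CPM in WGP (0.72 ± 0.15 SE, adjusted p = 0.00993, edgeR), a call lost without WGP replicate 1. Cdkn1c and Cdkn2d had estimates of -3.52 and -1.15 and missed the threshold with edgeR (adjusted p = 0.0576 and 0.0609). DESeq2 called both lower, limma-voom called Cdkn1c lower, and over the 15 other settings Cdkn1c was called in 7 and Cdkn2d in 5. Of the 19 genes of the E2F, pocket protein and DREAM/MuvB list, which act on the promoter elements above, 0 passed edgeR's test and 4 had an unadjusted p under 0.05, beside 26.0% of all genes, and the median was -0.032.

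Among the 12 genes of origin licensing and firing 0 passed edgeR's test, at an adjusted or an unadjusted p of 0.05, with 11 estimates below 0. Of 22 replisome genes Lig1, the ligase that seals Okazaki fragments, fell (-0.91 ± 0.27 SE, adjusted p = 0.0452, edgeR), and of 10 genes of nucleotide supply and chromatin assembly Dck, the salvage kinase of deoxycytidine, rose (0.72 ± 0.16 SE, adjusted p = 0.0129, edgeR). Of 15 condensin, cohesin and separase genes Smc4, a condensin subunit, fell (-0.65 ± 0.16 SE, adjusted p = 0.0243, edgeR). Mitotic entry and the anaphase-promoting complex gave 3 of 12 lower. Wee1, the kinase that restrains CDK1, fell from 19.8, 13.04 and 9.33 CPM in PBS to 4.18, 4.12 and 3.69 CPM in WGP (-1.82 ± 0.41 SE, adjusted p = 0.0136, edgeR). Cdc25b, the phosphatase that opposes Wee1, fell as well (-0.88 ± 0.23 SE, adjusted p = 0.0298, edgeR), as did Ube2s (-1.11 ± 0.32 SE, adjusted p = 0.0444, edgeR). Over the 15 other settings, Wee1 and Dck were called in 14, Cdc25b in 11, Smc4 in 10, and Lig1 and Ube2s in 8. Leaving out PBS replicate 1 lost Wee1, Cdc25b, Smc4, Lig1 and Ube2s, and leaving out WGP replicate 1 lost Dck, Cdc25b, Smc4, Lig1 and Ube2s. Lig1 was also lost when WGP replicate 3 or either of the other two PBS libraries was left out and with edgeR's stricter filter, and Ube2s without PBS replicate 2 or WGP replicate 2, with that filter and with limma-voom. Smc4 and Cdc25b were also lost without PBS replicate 3 or WGP replicate 3, and Smc4 without WGP replicate 2. In the lists of centromere and kinetochore (14 genes), spindle checkpoint (7 genes) and kinesins, spindle and cytokinesis (19 genes), 0 genes passed edgeR's test, and 1, 1 and 2 had an unadjusted p under 0.05, each a smaller share than the 26.0% of all genes. DESeq2 and limma-voom each called Cenpa of the first and Incenp of the third lower, and called 0 genes of the spindle checkpoint, E2F and origin lists. Incenp lay just above the threshold (adjusted p = 0.050002, edgeR). It was called in 7 of the 15 other settings, among them edgeR with other scalings and other filters.

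The kinesin, spindle and cytokinesis list had the lowest median of the last 3 (-0.66, with 17 of 19 estimates below 0), and PBS replicate 1 was the highest library in 16 of its 19 genes. Racgap1, which forms the centralspindlin complex with the product of Kif23, was at 38.8, 32.7 and 22.3 CPM in PBS and at 19.3, 14.1 and 20.2 CPM in WGP (log2 fold change -0.81 ± 0.27 SE, adjusted p = 0.0759, edgeR). Its groups did not overlap. Without PBS replicate 1, the pathway genes called lower were 2, Ccnd1 and Cdk6, and those called higher were 4, Ccnd3, Cdkn1a, Dck and E2f4.

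**Figure D5:**
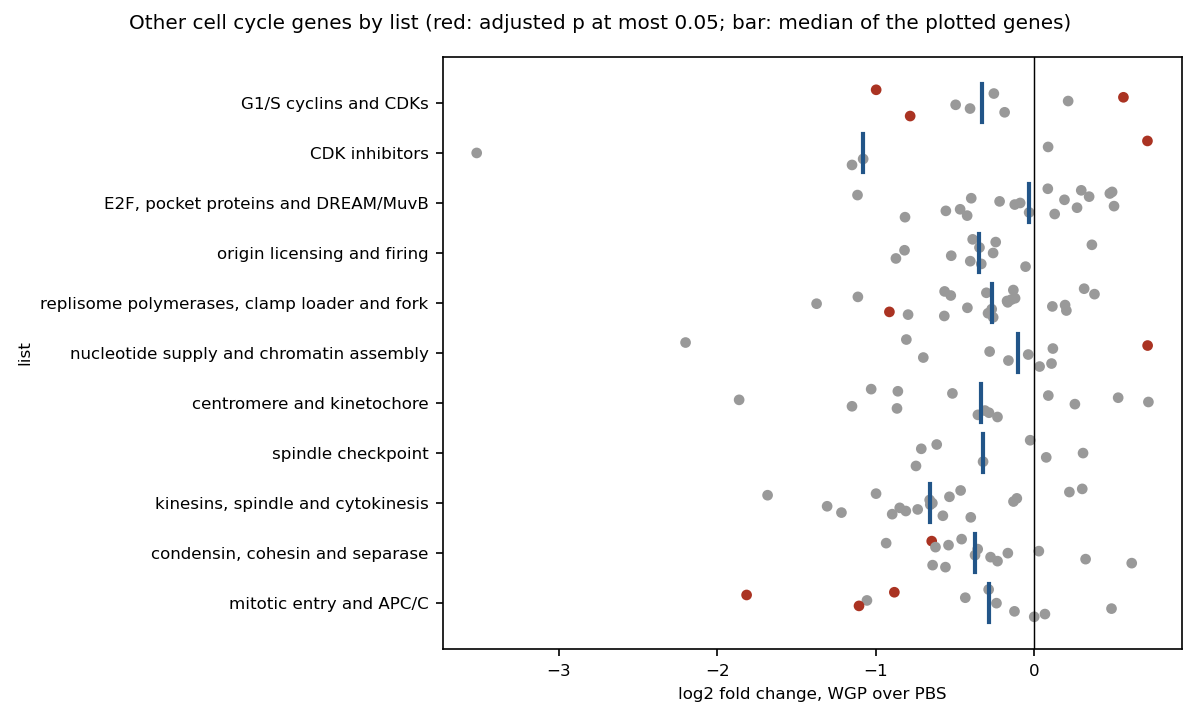
Log2 fold change, WGP over PBS, of the other cell cycle genes, a point per gene in a row per list (red: adjusted p at most 0.05; blue bar: median of the plotted genes). Left out are 4 genes with a mean under 1 CPM (Cdkn2a, Cdkn2b, Orc1 and Cdc25c); most points lie left of 0, and the 3 red points to its right are Ccnd3, Cdkn1a and Dck.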

How the data were processed

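RNA was measured in sorted CD45+CD11b+ pancreatic cells, 3 libraries per group, grouped by their labels. The authors deposited raw read counts per gene, which per the submitters' processing notes came from STAR 2.6 and HTSeq 0.10.0 on GRCm38.p6 (mm10). The annotation release, strand setting and handling of duplicate reads are not given in the sources used here. Symbols came from GENCODE vM21, and 0 columns belonged to other samples. Genes with at least 10 normalized counts summed over the libraries were kept. Counts were scaled by TMM and tested with edgeR 4.0.16 (quasi-likelihood, Benjamini-Hochberg adjustment, R 4.3.3). The fit was also run on simulated counts. These held no control that stood apart and no Y-linked difference, so that check does not cover either. CPM per kilobase used the union of annotated exons. limma 3.58.1 (voom) and DESeq2 1.42.0, other scalings, other filters, a replicate block, a Y-linked covariate and leaving out each library were alternatives, and counts divided by each library's most frequent low count were added after seeing the data. Values in every library were given for Mki67, Pcna, Top2a, Cdk1 and, in each group of members, the 5 called with the smallest p and the 2 highest and 2 lowest per length. From each pathway list the 3 genes with the smallest p could be named, and other members with their values were chosen after these were seen. The members and lists were chosen with earlier results of these data known.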

Additional observations from a re-analysis of the deposited data

How the results depend on the processing

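Of 600 member values over 15 alternatives, 543 kept their direction and side of the threshold, 13 lost and 13 gained a call, and 31 changed sign, none of them a called gene. Calls of replication genes lower (5) ran from 3 to 4 when a library was left out, and were 2 with a log2 fold change of at least 1. Calls of mitosis genes lower (2) ran from 1 to 3, and were 5 with the Y-linked covariate. Anln was lost without WGP replicate 1 or 3 and without PBS replicate 3, Mcm6 without WGP replicate 2 or 3, and Rrm1 whichever library was left out. The median of the mitosis genes ran from -0.76 to 0.0212 over the libraries left out, and was -1.03 with the Y-linked covariate. Pathway genes called lower (7) were 13 with library totals, 13 with DESeq2 and 12 with divided counts, and ran from 2 to 8 when a library was left out; those called higher (3) ran from 1 to 4. With library totals the median of all genes was -0.16 in place of -0.053, and relative to it the medians were -0.63 and -0.50. The causes were not tested, beyond that fewer libraries enter a fit.

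Sign changes came, when a library was left out, from Mcm3 (-0.25 to 0.15), Mcm5 (-0.42 to 0.0774), Rrm2 (-1.02 to 0.0940), Tyms (-0.11 to 0.59), Fen1 (-0.20 to 0.0866), Mki67 (-0.30 to 0.46), Top2a (-0.58 to 0.0109), Ccnb1 (-1.54 to 1.62), Aurka (-0.54 to 0.21), Aurkb (-0.0336 to 0.40), Bub1 (-1.17 to 0.18), Plk1 (-0.75 to 0.14), Cenpf (-1.35 to 0.10), Tpx2 (-0.54 to 0.0315) and Birc5 (-0.29 to 0.71). With the Y-linked covariate Tyms was -0.21, Aurkb -0.31 and Bub1b -0.26; with limma-voom Mki67 was 0.11, Ccnb1 1.57 and Birc5 0.17; with divided counts Mki67 was 0.0104 and Birc5 0.0851.

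Same-numbered libraries did not deviate together (r = 0.0225, -0.097 and 0.0375 across genes), so the numbers were taken as names only. With the replicate block 1947 genes were called in place of 2071, members called lower stayed 5 and 2, Mcm2 entered and Rrm1 left, the median of the mitosis genes was -0.30 with 15 of 20 below 0, Ccnd3, Lig1 and Ube2s were no longer called, and Mki67 was 0.11, Ccnb1 0.68 and Birc5 0.17.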
